A study of Mus musculus with 37 samples.

Results

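The cytosolic ribosomal protein genes encode the proteins of the large (60S) and small (40S) ribosomal subunits. They were chosen by name, as gene symbols of the form Rpl, Rps, Rplp or Rpsa with their numbers and letters, and by a total of at least 100 counts over all libraries. Of 57180 genes in the count tables, 90 had such a name and 87 passed, 52 of the 60S and 35 of the 40S subunit. The 3 left out were Rpl10l and Rps12l1, each at 0 counts, and Rpl39l, at 60 counts. The annotation marks 83 of the 87 as protein coding, and Rpl32l, Rpl6l, Rps3a2 and Rps3a3 as processed pseudogenes, copies of an mRNA inserted back into the genome. Rpl24, Rpl36al and Rps10 had 129, 527 and 768 counts in all, and each shares exons on its strand with another annotated gene, so their values are uncertain. Rpl13a, at 14952 counts, also shares 33.0% of its exon bases on its strand with other annotated genes, so its values carry a similar doubt.

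The study asked how the translated mRNAs of dopamine and GABA neurons of the ventral midbrain differ between young and old mice. Every mouse carried a loxP-stop-loxP NuTRAP allele, whose EGFP-tagged L10a ribosomal protein is made only where Cre is active, and RNA bound to tagged ribosomes was purified and sequenced. Cre came from DAT IRES-cre (Slc6a3, the dopamine transporter) in DAT;NuTRAP mice and from Vgat-ires-cre (Slc32a1, the vesicular GABA transporter) in VGAT;NuTRAP mice. The tag is thus made in whatever midbrain cells drive those genes. The libraries also held counts of glial markers, given below. The DAT libraries came from 10 young mice (5 females and 5 males) and 9 old mice (4 females and 5 males), and the VGAT libraries from 10 young (6 females and 4 males) and 8 old (5 females and 3 males), with 1 library per mouse. Young mice were 7 to 10.5 months old and old mice 21 months, with 1 VGAT female at 24 months.

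Ribosomal proteins join ribosomal RNA in the nucleolus, and each ribosome holds a single copy of nearly every one of them. Their mRNAs are short and abundant, and many begin with a 5′ terminal oligopyrimidine (TOP) tract, a C followed by further C and T bases, through which mTOR signalling controls their translation. In neurons they are read in the cell body and in processes. Mutations in many of these genes cause Diamond-Blackfan anaemia. In this assay one of them, L10a (gene Rpl10a), is also the tagged protein.

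Start sites are shown for members whose levels are described below, to display the TOP tract and a start without one. RefSeq's promoter table (GRCm38.p6) held 75 starts of 63 of the 87 genes. In each sequence the first 15 bases lie before the annotated start and the other 15 follow it, 5′ to 3′ on the gene's strand. Capitals mark the unbroken run of C and T that passes through the start.
Rps27 (chr3:90213634-90213663, minus strand): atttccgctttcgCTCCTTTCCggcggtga
Rps15a (chr7:118116133-118116162, minus strand): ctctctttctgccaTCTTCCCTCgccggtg
Rps6 (chr4:86857353-86857382, minus strand): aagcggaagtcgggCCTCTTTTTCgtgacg
Rpl35 (chr2:39005117-39005146, minus strand): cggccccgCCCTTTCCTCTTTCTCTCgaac
Rpl15 (chr14:18270972-18271001, minus strand): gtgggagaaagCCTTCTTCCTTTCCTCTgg
Rplp2 (chr7:141447636-141447665, plus strand): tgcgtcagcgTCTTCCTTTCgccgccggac
Rpl10a (chr17:28328550-28328579, plus strand): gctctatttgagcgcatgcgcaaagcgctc

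A start at a C followed by at least 4 bases that are C or T, read on the transcript's strand alone, was present at 14 of the 75 starts (18.7%), 1 in each of 14 genes. The same letters stood at 2.5% of the 32851 starts of the whole table. Allowing the C to lie within 10 bases of the annotated start raised the shares to 53.3% and 30.7%. Rps27 and Rps15a both have such a start, and they lay near opposite ends of the second-batch cell type comparison described below. The start shown for Rpl10a has no such run, but another annotated start of Rpl10a has one within 10 bases.

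Libraries held 13841253 to 38235015 counts. The dopamine and GABA markers followed the labels. Levels are in CPM, read counts scaled for library size with edgeR's TMM factors. The summed CPM of 13 dopamine neuron markers was 15060 to 22510 in DAT and 1295 to 4769 in VGAT libraries, and that of 11 GABA neuron markers was 587.2 to 997.1 and 4352 to 5889. The labels also name a first and a second batch, with 8 and 11 DAT libraries and 6 and 12 VGAT libraries. They do not say that a batch of one model was run together with the batch of that name in the other. The second-batch DAT libraries stood apart: 14320 to 18170 genes had a count in them, compared with 19080 to 21050 in first-batch DAT libraries and 18480 to 21800 in VGAT libraries. Results between models are therefore given by batch.

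Ribosomal protein mRNAs took a larger share of the counts in second-batch DAT libraries than in any other library. The share ran from 1.07% to 1.29% with a median of 1.11% in first-batch DAT libraries. In second-batch DAT libraries it ran from 1.73% to 2.25%, with a median of 2.11%. It was 1.02% to 1.21% (median 1.05%) in first-batch VGAT libraries and 0.895% to 1.10% (median 1.01%) in second-batch VGAT libraries. The second-batch DAT libraries overlapped none of the others, and the lowest of them, an old male (replicate 5), was alone below 2.06%. The other 3 sets of libraries overlapped one another.

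**Figure D1:**
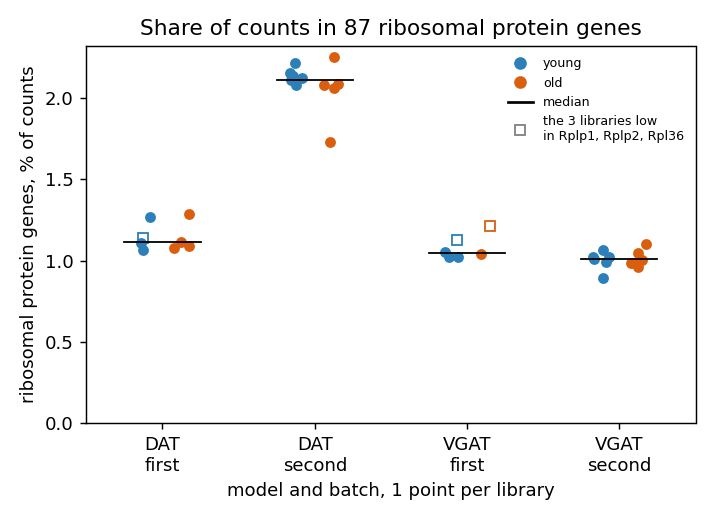
Share of all counts, in percent, taken by the 87 ribosomal protein genes in each of the 37 libraries, by model, age and batch. Each point is 1 library; second-batch DAT libraries lie between 1.73% and 2.25%, above the 0.895% to 1.29% of all others.

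Both subunits shared in this. The 60S to 40S ratio of summed CPM was 1.63 to 1.76 in first-batch DAT, 1.55 to 1.68 in second-batch DAT, 1.59 to 1.72 in first-batch VGAT and 1.63 to 1.70 in second-batch VGAT libraries. These ranges overlapped, with the lowest median, 1.58, in second-batch DAT libraries. Other measures moved with the same libraries. Summed CPM of oligodendrocyte markers was 1216 to 2557 in second-batch and 552.3 to 832.5 in first-batch DAT libraries, compared with 288.8 to 1086 in VGAT libraries. Summed astrocyte markers were 1455 to 2509, 986.2 to 1981 and 933.9 to 1496 in the same order. Microglia markers overlapped, at 54.89 to 179.9 in DAT and 23.95 to 226.1 in VGAT libraries. The mitochondrially encoded share of counts was 0.275% to 0.873% in second-batch and 0.0885% to 0.297% in first-batch DAT libraries. All 15 oligodendrocyte markers had counts in both models, and Cldn14 was at 0 in 6 of 11 second-batch DAT libraries and 7 of 8 first-batch ones. The part of these in the ribosomal protein values was not tested. In bulk samples such as these, more cells of a type and more RNA per cell cannot be told apart.

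Pooled over batches with a common batch term, most ribosomal protein mRNAs were lower in VGAT than in DAT libraries at both ages. In young mice 77 of 85 members tested were lower and 0 higher, beside 24.3% and 25.4% of all 16898 genes, and their median log2 difference (VGAT minus DAT) was -0.75. In old mice 77 were lower and 0 higher, beside 22.7% and 24.1%, with a median of -0.72. These counts come from edgeR's quasi-likelihood test with Benjamini-Hochberg adjustment over all genes tested, called at an adjusted p below 0.05. DESeq2 and limma-voom gave counts within 1.5 times of these. Over all genes tested, the median of every comparison reported here lay between -0.03 and 0.04. The pooled values average over unlike batches. First-batch libraries alone gave 2 higher and 7 lower in young mice (median -0.11) and 3 and 3 in old mice (median -0.00). Second-batch libraries alone gave 76 lower in young (median -1.14) and 77 in old mice (median -1.06). The first batch held 4 DAT and 4 VGAT young libraries and 4 DAT and 2 VGAT old ones. The second held 6 DAT and 6 VGAT young libraries and 5 DAT and 6 VGAT old ones. Counts of calls also depend on these sizes, and no share of all genes is given for these fits.

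In the second batch, 79 of the 85 members tested were lower in VGAT than in DAT libraries and 0 were higher, beside 28.6% and 31.4% of all 17449 genes. Their median log2 difference was -1.12, with a range from -1.55 to -0.03. In 75 of the 87 members every DAT library lay above every VGAT library, beside 9.39% of 16857 genes. In the first batch, 8 were lower and 4 higher, beside 13.9% and 15.6% of all genes, with a median of -0.07. There 2 members, Rpl10 and Rps2, had every DAT library above every VGAT library, beside 9.75% of genes. The difference between the batches' cell type differences was called negative for 79 of 85 members and positive for 0, beside 12.0% and 16.0% of all genes, with a median of -1.03. Both batches shared the same fit. When any 1 library was left out, the interaction count was 76 to 79 and the second-batch count lower 79 to 80. The first-batch count lower ran from 5 (without DAT young male 1) to 20 (without VGAT old male 1), and the first-batch median from -0.13 to -0.06. The 13.9% of all genes belongs to the fit of all libraries, and no such share is given for the fits without a library.

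**Figure D2:**
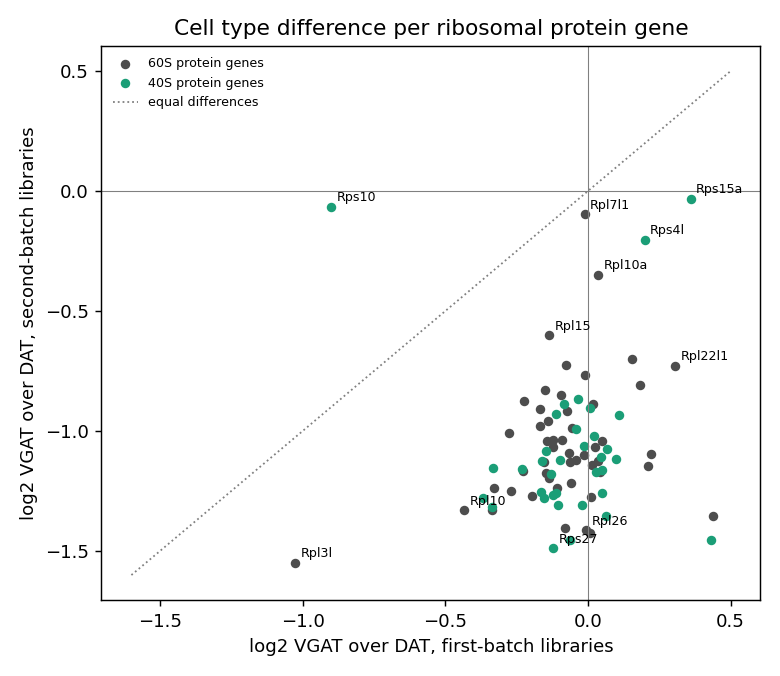
Log2 difference (VGAT minus DAT) of each ribosomal protein gene in the first batch (x axis) and in the second batch (y axis). Points are genes; they centre on -0.07 along x and on -1.12 along y, and Rps15a, Rps10, Rpl7l1 and Rps4l lie nearest 0 on the y axis.

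Of the 40S members, 31 of 35 were lower in second-batch VGAT libraries, with a median of -1.15. Rps27, a zinc finger protein of the 40S subunit, was at 116 to 190.1 CPM (median 150.3) in second-batch DAT libraries and 45.2 to 60.2 CPM (median 54.2) in second-batch VGAT libraries. The groups did not overlap, and the log2 difference was -1.49 ± 0.08 (SE, n = 11 and 12, edgeR adjusted p = 2.83e-20). In the first batch Rps27 was at 36.8 to 68.7 CPM (median 40.4) in DAT and 32.4 to 52.4 CPM (median 40.2) in VGAT libraries, overlapping, at -0.12 ± 0.11 (n = 8 and 6, edgeR adjusted p = 0.464). Its gene lies at chr3:90119819-90120977 on the minus strand of GRCm39. Rps12 (-1.45), Rps15 (-1.27) and Rps6 (-1.26), the last the substrate of S6 kinase, were lower by similar amounts in second-batch VGAT libraries.

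Among 60S members, 48 of 50 tested were lower in second-batch VGAT libraries, with a median of -1.09. Rpl26 gave the smallest p. It was at 278 to 364 CPM (median 338) in second-batch DAT libraries and 112 to 132 CPM (median 122) in second-batch VGAT libraries, a log2 difference of -1.41 ± 0.05 (edgeR adjusted p = 2.79e-27). In the first batch it was at 118 to 145 CPM in DAT and 114 to 150 CPM in VGAT libraries, and the difference was -0.01 ± 0.06 (edgeR adjusted p = 0.959). So the levels overlapped in one batch and stood well apart in the other, and the difference between these 2 differences was -1.41 ± 0.08 (edgeR adjusted p = 1.05e-17). Rpl35 was at 104 to 207 CPM in second-batch DAT and 43.5 to 55.6 CPM in second-batch VGAT libraries, with a log2 difference of -1.43 ± 0.08 (edgeR adjusted p = 3.96e-20), and at 0.01 ± 0.10 in the first batch. Rpl37a (-1.40) and Rpl41 (-1.33), which encodes a very short basic protein, were also lower.

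Rpl10 and Rps2 were the 2 members with every DAT library above every VGAT library within each batch, and Rpl10 was the 1 member with every DAT library above every VGAT library of either batch. It encodes a 60S protein that joins late in subunit maturation, and lies on the X chromosome (chrX:73314418-73316741, plus strand, GRCm39). It was at 131 to 156 CPM in DAT and 84.5 to 127 CPM in VGAT libraries of the first batch, and at 194 to 303 CPM and 91.8 to 114 CPM in the second. Its log2 differences were -0.43 ± 0.08 (edgeR adjusted p = 1.54e-05) and -1.33 ± 0.06 (edgeR adjusted p = 2.5e-23). Rps2, of the 40S subunit, was lower by 0.37 and by 1.28 on the log2 scale in VGAT libraries of the first and second batch. The other members lower in first-batch VGAT libraries were Rpl41 (-0.34), Rpl18 (-0.33), Rpl13 (-0.27), Rps4x (-0.23), Rplp0 (-0.22) and Rpl7 (-0.17). The call of Rpl7 was lost with sex as a covariate (edgeR adjusted p = 0.0672) and that of Rplp0 without the 3 libraries described below (edgeR adjusted p = 0.0515).

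The 4 members higher in first-batch VGAT libraries were Rps15a (0.36), Rpl22l1 (0.31), Rpl38 (0.21) and Rpl17 (0.18). The calls of Rpl17 and Rpl38 were lost under library totals (edgeR adjusted p = 0.0934 and 0.0509), under limma-voom (adjusted p = 0.0552 and 0.0564) and without the 3 libraries described below (edgeR adjusted p = 0.609 and 0.218), and that of Rpl17 also under RLE factors (edgeR adjusted p = 0.0712), TMM factors set without members (0.0551) and DESeq2 (adjusted p = 0.0644). Of the 4, Rpl22l1, Rpl38 and Rpl17 were lower in second-batch VGAT libraries, at -0.73, -1.15 and -0.81. Rps15a was not. This 40S gene was at 138 to 182 CPM (median 148) in DAT and 176 to 211 CPM (median 194) in VGAT libraries of the first batch. In the second batch the ranges were 161 to 238 CPM (median 190.1) and 165 to 199.8 CPM (median 186), which overlap, and the log2 difference was -0.03 ± 0.05 (edgeR adjusted p = 0.617). Its cell type difference still differed between the batches, by -0.39 ± 0.08 (edgeR adjusted p = 3.07e-04).

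Rpl10a, the endogenous gene of the tagged protein, showed one of the smaller shifts. First-batch levels were 210.5 to 249 CPM (median 230.2) in DAT and 217 to 247 CPM (median 232) in VGAT libraries. Second-batch levels were 239 to 340.5 CPM (median 267) and 206 to 219 CPM (median 214), with no overlap. The log2 difference was 0.04 ± 0.06 in the first batch (edgeR adjusted p = 0.724) and -0.35 ± 0.05 in the second (edgeR adjusted p = 7.37e-09), and the difference between batches was -0.38 ± 0.08. The counts do not separate reads of the transgene's L10a sequence from reads of the endogenous mRNA, and how such reads were assigned was not tested. Rpl15 had a second-batch difference of -0.60 ± 0.04 and a first-batch one of -0.13 ± 0.06. Besides Rps15a, the 5 members not called in the second batch were Rpl7l1 (-0.10), Rps4l (-0.20), and the low or shared genes Rps10, Rpl36al and Rps3a3.

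**Figure D3:**
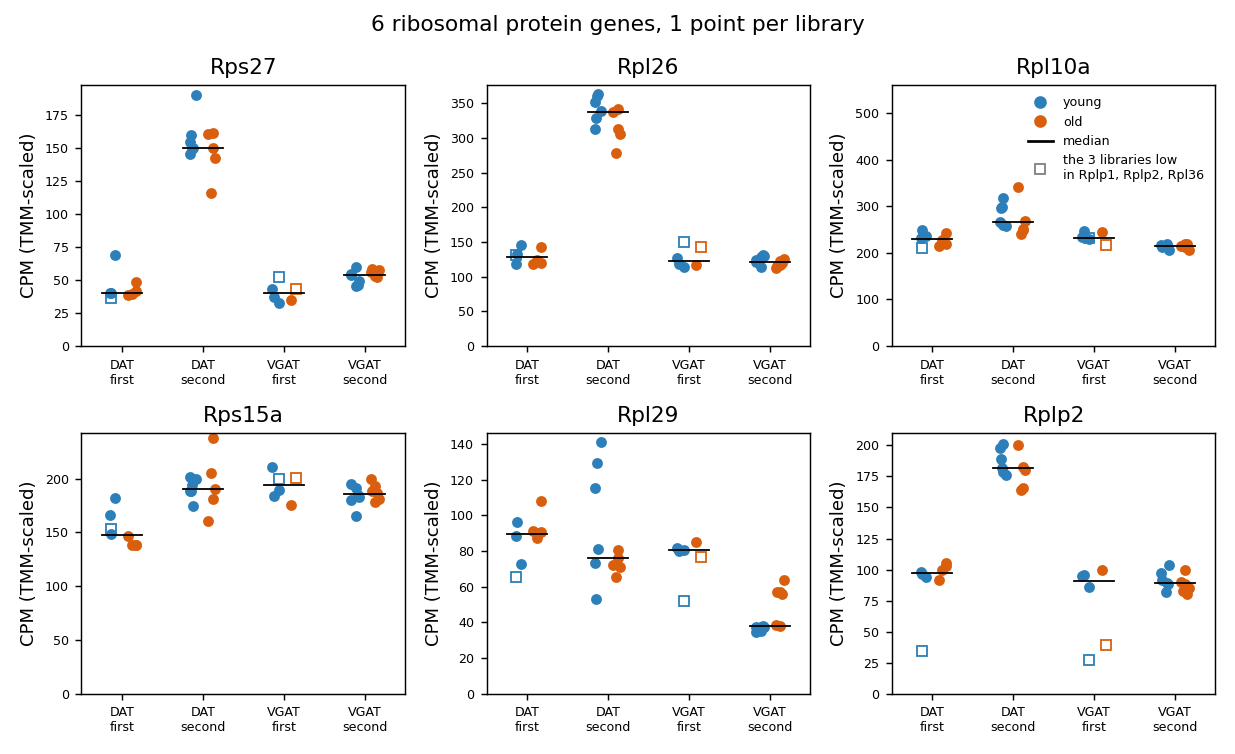
CPM of 6 ribosomal protein genes in each library, by model and batch; each point is 1 library and the bar is the median. Rps27 and Rpl26 are high in second-batch DAT libraries alone, while the Rps15a ranges of the 2 models overlap in the second batch.

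The 60S stalk, where elongation factors bind, is built from Rplp0 at its base and the acidic proteins Rplp1 and Rplp2. All 3 were lower in second-batch VGAT libraries, at -0.88 for Rplp0, -1.04 for Rplp1 and -1.01 for Rplp2. Rplp1 was at 328 to 408 CPM in second-batch DAT and 152 to 191 CPM in second-batch VGAT libraries. In the first batch it ran from 76.0 to 180.1 CPM in DAT and 73.5 to 177 CPM in VGAT libraries, a wide spread that comes from 3 libraries described below. Rpl5 and Rpl11, which carry 5S ribosomal RNA into the 60S subunit and bind Mdm2, were at -1.04 and -1.28 in the second batch and at -0.09 and 0.01 in the first. Of the X-linked members, Rpl36a (-1.10), Rpl39 (-1.12) and Rps4x (-1.16) were lower in second-batch VGAT libraries, as was Rpl10. Rps27a, made as a fusion with ubiquitin, was at -1.06.

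Within the DAT model, 80 of 85 members were higher in the second batch than in the first and 0 were lower, beside 16.3% and 21.6% of all genes, with a median log2 difference of 0.94. In 72 of the 87, every second-batch DAT library lay above every first-batch one, beside 3.90% of 16857 genes. Rps27 (1.77), Rpl13 (1.60), Rplp1 (1.35), Rpl26 (1.34), Rps28 (1.33) and Rpl38 (1.32) had large differences. Rps15a (0.34), Rpl10a (0.26) and Rpl15 (0.17) were higher by less, and Rpl7l1 was at -0.12 (edgeR adjusted p = 0.265). The members not called were Rpl7l1, Rpl29, Rpl3l, Rps10 and Rpl36al. Batches of DAT libraries held each age and sex, with 1 old female, 3 old males, 2 young females and 2 young males in the first.

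Within the VGAT model, 4 members were higher and 20 lower in the second batch, beside 5.87% and 6.02% of all genes, with a median of -0.09. Without the 3 libraries described below the count lower was 10, and no share of all genes is given for that fit. Rpl29, a 60S protein, had the lowest value. It was at 52.1 to 85.1 CPM (median 80.4) in first-batch and 34.6 to 63.8 CPM (median 37.9) in second-batch VGAT libraries, a log2 difference of -0.81 ± 0.17 (edgeR adjusted p = 8.36e-04). These ranges overlap. Rps14 (-0.54), Rpl27 (-0.39), Rps27a (-0.37), Rpl6 (-0.37) and Rpl7 (-0.35) were also lower, and Rpl13 (0.63), Rps29 (0.42), Rps27 (0.41) and Rpl27a (0.23) were higher. The call of Rpl27a was lost under library totals (edgeR adjusted p = 0.0526) and without the 3 libraries (edgeR adjusted p = 0.307).

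Other genes of the translation machinery were less uniform. In second-batch VGAT compared with DAT libraries, Fau (-1.09) and Rack1 (-0.82), ribosomal proteins outside the name rule, were lower. Of 21 other mRNAs known for a TOP tract 18 were lower and 0 higher (median -0.61), and of 10 elongation factors 7 were lower and 1 higher (median -0.41). Of 38 initiation factors 25 were lower and 10 higher (median -0.36), and of 43 ribosome assembly factors 18 were lower and 13 higher (median -0.09). RNA polymerase I and rDNA transcription genes had 4 of 14 lower and 5 higher, and genes from mTOR to translation 5 of 18 lower and 8 higher. These lists stood beside 28.6% of all genes lower and 31.4% higher. Eef1a1, the factor that delivers aminoacyl-tRNA, was lower in VGAT libraries of both batches (-0.68 and -0.98).

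Other lists were counted in the DAT batch comparison beside the 16.3% of all genes higher and 21.6% lower. Of 31 tested nuclear genes for respiratory chain subunits with short mRNAs, 28 were higher and 1 lower in second-batch DAT libraries (median 0.68). Of 14 tested oligodendrocyte markers 13 were higher (median 1.51), and of 15 astrocyte markers 9 (median 0.57). Of 15 microglia markers 5 were higher (median 1.20), and of 10 endothelial markers 1 (median 0.43). None of these 4 marker lists had a gene called lower. In the cell type comparison of the second batch, 13 of 14 oligodendrocyte and 14 of 15 astrocyte markers were lower in VGAT libraries. In the first batch 2 of 14 oligodendrocyte and 13 of 15 astrocyte markers were lower, beside 13.9% of all genes. What these lists contribute to the ribosomal protein values was not tested.

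Transcript length went with the batch difference across genes. Canonical transcripts of members had a median of 1051 bases, compared with 3134 for other tested genes. Other genes under 1000 bases had a median DAT batch difference of 0.44, those of 1000 to 2000 bases 0.25, those of 2000 to 4000 bases -0.00 and those over 4000 bases -0.25. The 40 members under 1000 bases had a median of 1.02. In the second-batch cell type comparison the same length classes of other genes had medians of -0.50, -0.39, -0.04 and 0.38, and the members under 1000 bases -1.15. Across the 85 members Spearman's rho between length and the DAT batch difference was -0.279, a description over genes that share libraries. Members with a TOP run exactly at the annotated start had a median second-batch cell type difference of -1.13 (13 genes). Members with an annotated start but no such run there had -1.12 (48 genes). The second set includes members with such a run within 10 bases of the start, among them Rpl27a, Rpl7a and Rpl12. The split therefore follows the annotated base and does not sort members by whether their mRNAs carry a TOP tract.

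Levels among members spanned a wide range. Per kilobase of merged exon, Rplp1, Rpl8 and Rps3a1 were highest, in that order, in each batch of each model. Their levels were 242 ± 52.5, 204 ± 20.1 and 193 ± 23.5 CPM in first-batch DAT (SD, n = 8) and 622 ± 42.4, 347 ± 26.5 and 310.0 ± 24.1 CPM in second-batch DAT libraries (n = 11). They were 247 ± 76.2, 191 ± 13.2 and 181 ± 22.3 CPM in first-batch VGAT (n = 6) and 298 ± 19.3, 181 ± 8.49 and 165 ± 7.73 CPM in second-batch VGAT libraries (n = 12). In the first batch of both models neighbours in this order differed by less than the larger SD. In the second batch of both they differed by more. The order depends on the length used. Per kilobase of canonical transcript and pooled over batches, Rps15, Rpl41 and Rpl9 were highest in DAT libraries, at 631, 608 and 551 CPM, and Rpl3, Rps15 and Rpl9 in VGAT libraries, at 346, 337 and 334 CPM. Rpl24, Rpl36al and Rpl32l were lowest in DAT libraries per kilobase of merged exon, also pooled over batches, at 0.0987, 0.231 and 0.239 CPM.

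Within groups of model, age and batch, members varied together. Over 79 members above 10 CPM, the median correlation between 2 members' deviations from their group means was 0.345, and 2590 of 3081 pairs were above 0. For 9371 other genes at that level the median was 0.000873. The points share libraries and scaling, and no p is given. Rpl8, Rpsa and Rpl15 had the smallest SD of log2 CPM within groups, at 0.0863, 0.0892 and 0.0894. Among members above 10 CPM the largest were Rpl36 (0.427), Rplp2 (0.416), Rps4l (0.397) and Rpl29 (0.300).

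The spread of Rplp2, Rpl36 and Rplp1 came from 3 first-batch libraries of male mice: DAT young male 2, VGAT old male 1 and VGAT young male 1. Rplp2 was at 34.5, 39.0 and 27.2 CPM in them, compared with 91.4 to 105 CPM in other first-batch DAT and 86.2 to 99.5 CPM in other first-batch VGAT libraries. Rpl36 was at 27.9, 31.6 and 17.1 CPM, compared with 57.8 to 75.4 and 64.6 to 76.3 CPM, and Rplp1 at 76.0, 104 and 73.5 CPM, compared with 131 to 180.1 and 165 to 177 CPM. No first-batch library lay between. The 3 libraries were not low in members as a whole, whose median log2 deviation from the group was 0.17. Across 79 members the deviation had a Spearman's rho of -0.276 with transcript GC content, and across 9371 other genes -0.179. Without these libraries the first-batch comparison gave 3 members higher and 20 lower in VGAT, with a median of -0.12. No share of all genes is given for that fit, so this count cannot be set against a background. The first-batch count thus depends on these libraries.

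Some ribosomal proteins have a paralog, and the share of a paralog in the counts of its pair does not depend on library scaling. Rps27l took 20.5% to 23.3% of the Rps27 and Rps27l counts in first-batch DAT libraries and 8.17% to 15.9% in second-batch DAT libraries, which do not overlap. In VGAT libraries it took 14.6% to 23.4% and 7.85% to 16.8%. Both models thus had a lower median in the second batch, 11.3% against 21.3% in DAT and 13.4% against 20.5% in VGAT. The Rpl7l1 share of the Rpl7 pair was 19.5% to 23.9% in first-batch DAT, 11.6% to 19.2% in second-batch DAT, and 21.3% to 28.2% in all VGAT libraries. The Rpl22l1 share of the Rpl22 pair overlapped among all 4 sets, with medians from 35.4% to 39.6%. Rps4l took a median of 11.2% and 9.24% of its pair in first-batch and second-batch DAT libraries, and of 16.0% and 15.9% in VGAT libraries. Rpl3l, a paralog of striated muscle, took at most 0.448% of its pair. Counts of near-identical copies may be split by the counting, and the setting for reads with several matches is not given in the sources used here. Rows named as pseudogenes of these genes held 0.418% as many counts as the members. Those named for Rps10 held 1385 counts, more than the 768 of Rps10 itself.

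**Figure D4:**
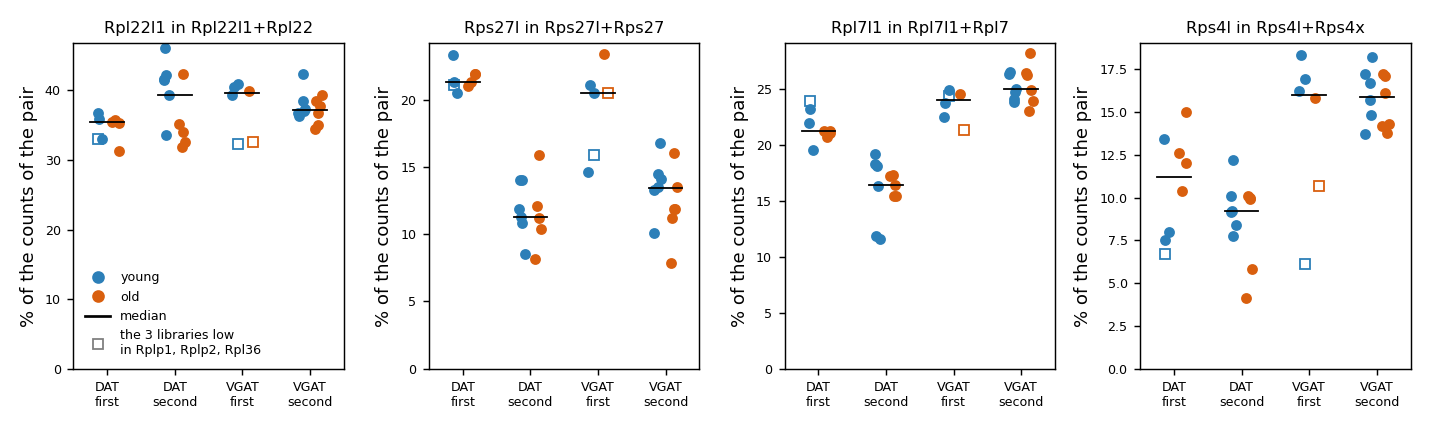
Share of a paralog in the summed counts of its pair, in percent, by model and batch; each point is 1 library and the bar is the median. The Rps27l share is lower in second-batch than in first-batch DAT libraries with no overlap, and the Rpl22l1 shares overlap.

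No ribosomal protein mRNA passed the test for age in either model with both sexes pooled. In DAT libraries 0 of 83 members tested were called higher or lower in old compared with young mice, beside 0.00672% of all 14889 genes higher and 0 lower. The members' median log2 difference (old minus young) was -0.06, with 22 above and 61 below 0 beside 50.7% of all genes above 0, and 3 had an unadjusted p below 0.05. Rps24 (-0.19 ± 0.06, edgeR adjusted p = 0.811) and Rpl30 (-0.27 ± 0.09, adjusted p = 0.813) had the smallest p. In second-batch DAT libraries Rps24 was at 280 to 331 CPM in old and 293 to 401 CPM in young mice, which overlap. DESeq2 and limma-voom also called 0 members.

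In VGAT libraries 0 of 84 members tested were called, beside 0.0256% of all 15607 genes higher and 0 lower. The median was 0.03, with 59 above and 25 below 0 beside 49.5% of all genes above 0, and 2 had an unadjusted p below 0.05. DESeq2 and limma-voom called 0 here too. Rpl29 had the smallest p, at 0.39 ± 0.11 (edgeR adjusted p = 0.561). The age difference of VGAT minus that of DAT was called for 0 of 85 members (median 0.03, 1 with an unadjusted p below 0.05) and for 0 of all genes tested, and DESeq2 and limma-voom called 0.

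By sex, the members of VGAT males lay mostly above 0 and those of VGAT females mostly below. In VGAT males (3 old, 4 young) 1 of 84 was called higher and 0 lower, beside 0.0252% and 0.0063% of genes, with a median of 0.12 and 76 above 0 beside 50.9% of all genes. The first-batch VGAT males, 1 old and 1 young, are both among the 3 libraries described above. When any 1 library was left out, the male median was 0.087 to 0.14. In VGAT females (5 old, 6 young) 0 were called, beside 0.032% of genes higher and 0 lower, with a median of -0.03 and 16 above 0 beside 49.1% of all genes. Males had 16 members (19.0%) and females 7 (8.33%) with an unadjusted p below 0.05, beside 5.12% and 5.59% of all genes. Members varied together between libraries, as described above, so a shift shared by a few libraries moves many of them together. In this and the pooled comparisons of age, counts of members above 0 or at an unadjusted p below 0.05 are not counts of separate results. The difference between the sexes' age differences (male minus female) had a median of 0.15 with 78 of 84 above 0 beside 50.5% of all genes, and 0 members were called, 15 (17.9%) with an unadjusted p below 0.05 beside 5.09% of all genes. Rpl30 had the smallest p there, at 0.53 ± 0.12 (edgeR adjusted p = 0.967). In VGAT males 13 of 14 oligodendrocyte markers also lay above 0 (median 0.82, 0 called), and their part was not tested. In DAT females and males 0 of 84 members were called in each (medians -0.06 and -0.06, with 3 and 5 at an unadjusted p below 0.05), nor any in the difference between them (median -0.01, 1 with an unadjusted p below 0.05). No gene at all was called in those 3 comparisons. DESeq2 and limma-voom called 0 members in each comparison by sex, apart from 1 each in VGAT males.

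**Figure D5:**
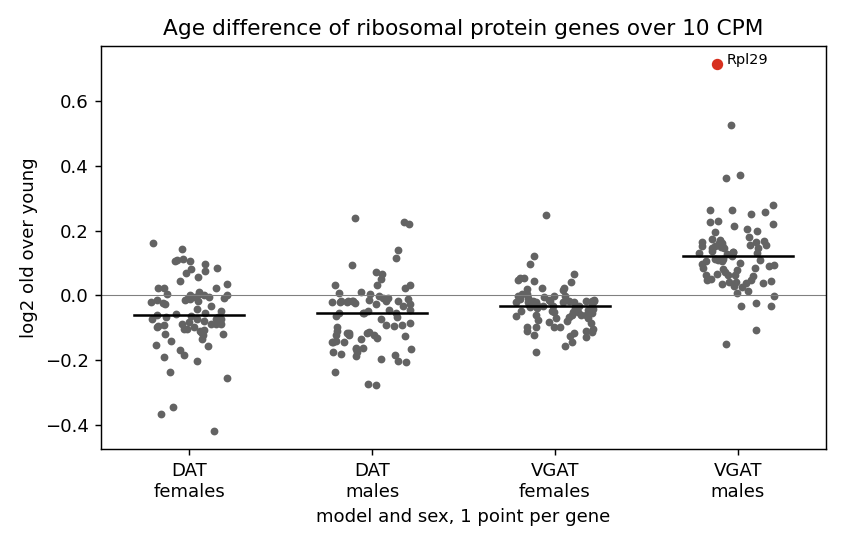
Log2 difference (old minus young) of each ribosomal protein gene, by model and sex; each point is 1 gene. Medians are -0.06 in DAT females and DAT males, -0.03 in VGAT females and 0.12 in VGAT males.

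The member called in VGAT males was Rpl29 (chr9:106306586-106311297, plus strand, GRCm39). It was at 76.8 CPM in the first-batch old male and at 63.8 and 57.3 CPM in the second-batch ones, and at 52.1 CPM in the first-batch young male and 35.3, 37.3 and 34.6 CPM in the second-batch ones. Old and young males did not overlap. Both first-batch males are among the 3 libraries described above. Rpl29 deviated from its group by -0.637 on the log2 scale in the young one and by -0.0821 in the old one. The log2 difference between old and young males was 0.71 ± 0.09 (n = 3 and 4, edgeR adjusted p = 0.0269). The call was lost when any 1 of the 7 libraries was left out (adjusted p 0.0525 to 0.272), without a batch term (adjusted p = 1) and in second-batch males alone (adjusted p = 0.172), with the log2 difference at 0.64 to 0.78 in all of these. In second-batch VGAT females, old mice were at 56.2, 37.8, 56.8 and 38.4 CPM and young mice at 37.6, 37.6 and 38.1 CPM. There 2 of the 4 old females lay near the old males and the others near the young mice. First-batch females are not listed here. The median of all first-batch VGAT libraries, given above and mostly of young mice, lay above every old male. The age difference of Rpl29 in VGAT females was 0.25 ± 0.11 (edgeR adjusted p = 0.887), and the difference between the sexes was 0.52 ± 0.20 (edgeR adjusted p = 0.967). With no filter on low counts that difference was called (0.53, edgeR adjusted p = 0.0297). In second-batch DAT libraries Rpl29 ranged from 53.2 to 141 CPM in young and from 65.4 to 80.6 CPM in old mice, which overlap.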

How the data were processed

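RNA bound to EGFP-tagged ribosomes from ventral midbrain was sequenced in 37 libraries, 1 mouse each. The authors mapped the reads to mm39 (STAR 2.7.10b) and summed them by gene in featureCounts (its version, strand and multiple-match settings are not given in the sources used here). The deposited values are raw counts for 57180 genes, with no scaling. Libraries were grouped by model, age, sex and batch from their labels. The 2 tables were joined by gene identifier.

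Differences were tested with edgeR 4.0.16 (R 4.3.3; quasi-likelihood, robust, TMM factors, filterByExpr with a minimum count of 10), batch as a covariate, Benjamini-Hochberg adjustment over all genes tested and a threshold of 0.05. Age was tested within each model, and cell type in all libraries with 1 shared spread. Fits of model by batch used all libraries with age as a covariate and were added after the data were seen. The members and gene lists were chosen with earlier results of these data known. Genes named in the text were the up to 8 called members with the smallest p in each direction (or the 3 with the smallest p where fewer than 3 were called) and members of the fixed lists; others, such as Rpl29 in DAT and Rps10, were named after their values were seen. Alternatives were DESeq2 1.42.0, limma-voom 3.58.1, other scaling factors, other filters, other covariates, each batch alone and each library left out. All 70 pairs of libraries within a group differed by more than sampling noise (lowest chi-square per degree of freedom 5.32). On simulated counts, the age test recovered 63.5% of 2-fold changes for DAT (14889 genes) and 78.5% for VGAT (15607 genes), and the young cell type test 57.0% (16898 genes). Gene positions came from a GRCm39 annotation that held 56620 of the identifiers, and start sites from RefSeq on GRCm38.p6. CPM carries the depth of each library, and SE and SD cover the spread between mice.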

Additional observations from a re-analysis of the deposited data

Results flagged for a closer look

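The cell type difference (VGAT minus DAT) of the ribosomal protein genes differed between batches, by an interaction term in edgeR, in 79 of 85 members tested. All of these were negative, beside 12.0% of all genes called negative and 16.0% called positive.

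In 77 groups of 4 to 10 libraries tested, a library lay far from the others of its group in 8. Chance gives about 1 in 20 groups. In DAT old females, replicate 1, the 1 first-batch library of that group, had 1.12% of its counts in members (others 2.06% to 2.08%), Rps27 at 39.4 CPM (others 142.8 to 160.7) and Rpl5 at 161.7 CPM (others 297.6 to 319.6). In VGAT old females, replicate 1, also the 1 first-batch library, had Rpl10a at 244.8 CPM (others 213.5 to 219.4) and Rps27 at 34.96 CPM (others 52.22 to 58.4). In VGAT young males, replicate 1, again the 1 first-batch library, had Rpl29 at 52.1 CPM (others 34.56 to 37.27). In VGAT young females, replicate 1, 1 of 3 first-batch libraries, had Rps15a at 210.8 CPM (others 180 to 191.4). In DAT old males, the second-batch replicate 5 had Rpl3l at 0.410 CPM (others 1.557 to 1.956), and this was the DAT second-batch library with the lowest share of counts in members.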

How the results depend on the processing

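Of values that answer a comparison, 1720 recomputed under an alternative stayed near the first value and 46 moved. Single-gene values stayed on their side of the threshold in 4901 cases, with 80 calls lost, 3 gained and 12 directions reversed. No share of all genes is given beside the counts of members in this section.

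Fits of 1 batch alone moved the cell type values most, with fewer libraries per group in the first batch. In young mice the first batch gave 2 higher, 7 lower and a median of -0.11, the second batch a median of -1.14, and batch nested in model -0.64. In old mice the first batch gave 3 higher, 3 lower and a median of -0.00321, the second batch -1.06, batch nested in model 1 higher and -0.54, limma-voom -0.80, and leaving out the 3 libraries low in Rplp1, Rplp2 and Rpl36 gave -0.81. For the age by cell type difference the first batch alone gave a median of 0.13, with Rpl29 at -0.090. Without a batch term the medians for age were 0.068 in DAT females, -0.24 in DAT males and -0.31 for their difference, and Rpl29 in VGAT females was at -0.11. In VGAT males 0 members were called without a batch term, with the replicate block and in the second batch alone. With no filter, 2 members, Rpl29 and Rps29, were called for age by sex in VGAT. In DAT by sex, Rpl7l1 was at 0.067 in the first batch alone. In the first-batch cell type comparison 2 were higher under library totals and under limma-voom, and 20 lower without the 3 libraries, which also took the VGAT batch count lower to 10. In the second batch limma-voom called 1 higher, Rps10, at 1.64. The cause was not tested.

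Replicate numbers did not pair libraries: correlations of same-numbered libraries' deviations ran from -0.223 to 0.193 in DAT and from -0.0782 to 0.0574 in VGAT. With the replicate block the VGAT batch counts were 2 higher and 5 lower, second-batch Rps15a was at 0.020 and Rps10 at 0.15, and Rpl29 in VGAT males was at 0.69 (edgeR adjusted p = 0.136). The VGAT batch calls of Rpl29, Rps27a, Rpl5, Rps29 and Rpl27a were lost.

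Leaving out each library in turn gave medians of -0.80 to -0.66 in young, -0.81 to -0.67 in old mice (0 to 1 higher) and -0.083 to 0.078 for age by cell type, and 0 to 0 called in VGAT males. The age medians ran from -0.076 to -0.028 in DAT, from -0.00017 to 0.047 in VGAT, from -0.080 to -0.016 in DAT females, from -0.11 to -0.022 in DAT males and from -0.054 to 0.036 for their difference. The VGAT batch count lower ran from 9 to 22, lowest without VGAT old male 1. The first-batch counts were 2 to 4 higher and 5 to 20 lower, with 20 without VGAT old male 1, 13 without DAT young male 2 and 5 without DAT young male 1. First-batch Rps12 ran from -0.14 to 0.0097 and Rps27 from -0.21 to 0.00381, second-batch Rps15a from -0.074 to 0.012 and Rps10 from -0.23 to 0.39. First-batch fits of a single sex of VGAT could not be run for lack of libraries. Depth limits Rpl24, Rpl36al, Rps10 and the pseudogenes.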
